A study of Mus musculus with 8 samples.

Results

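The genes of the tumour necrosis factor (TNF) superfamily described here are its ligands, their receptors and the TNF receptor-associated factors (TRAFs) that carry the signal inside the cell. They were chosen by gene symbol alone: every symbol starting with Tnfsf or Tnfrsf, Traf1 to Traf7, and Fas, Fasl, Cd40, Cd40lg, Cd27, Cd70, Lta, Ltb, Ltbr, Ngfr, Eda2r and Relt. Some further receptors of the family are not analysed here. This gave 47 of the 14980 genes in the table, namely 16 ligands, 16 receptors without a death domain or decoy role, 5 death domain receptors, 3 decoy receptors and 7 TRAF adaptors. RNA was sequenced from colonic lamina propria macrophages of 4 male mice, sorted as MHC class II and CD64 positive. Each mouse gave a GPR35-positive and a GPR35-negative fraction, making 8 libraries, 4 in each group. GPR35 is a G protein-coupled receptor, and the series set macrophages that carry it beside those that do not. All mice were sampled with no treatment named in the labels, and their strain and age are not stated there. GPR35-positive and GPR35-negative describe the sorting gate, not a genotype.

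TNF superfamily ligands are mostly membrane proteins that act as trimers, on the cell surface or after release. Their receptors fall into those that recruit TRAF adaptors and switch on NF-kB and kinase signalling, those with a death domain that can start apoptosis, and decoys that bind ligand and pass on little or no signal. In the gut wall, members of this family pass signals between macrophages, lymphocytes, plasma cells and stroma: BAFF and APRIL keep B and plasma cells alive, lymphotoxin acts on lymphoid tissue stroma, and CD40 and RANK are receptors through which lymphocytes act on myeloid cells.

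Library depth and make-up differed between the groups. Total counts were 42.5 ± 6.38 M (mega) in GPR35-positive and 23.6 ± 6.10 M in GPR35-negative libraries (SD, n = 4, ranges 33.8 to 48.6 and 16.0 to 30.1). An unpaired 2-sided exact permutation test gave p = 0.0286, the smallest that 4 against 4 unpaired libraries can give. That test did not use the pairing by animal. The positive library was the larger in all 4 animals. Gpr35 was at 56.2 to 91.9 CPM (counts per M counts of the TMM-scaled library) in positive and 1.13 to 4.69 CPM in negative libraries. Between 4.33% and 4.81% of all counts of a positive library came from a list of 20 macrophage identity genes. Their share in the negative libraries was 2.5% for replicate 1 and 0.611% to 1.21% in the others. Plasma and B cell markers took 0.110% to 0.256% in positive and 8.0% to 15.1% in negative libraries, although both fractions were gated as macrophages. Dendritic cell markers took 0.00997% to 0.0441% in positive and 0.00501% to 0.0262% in negative libraries, with the positive library higher in all 4 animals. Of these 8 genes 2 were higher past the threshold given below, Cd209a and Dpp4, and 0 were lower. Cd209a was at 29.0 to 256.6 CPM in positive and 4.43 to 10.5 CPM in negative libraries. Ccr7 and Fscn1 had lower means in positive libraries. The part of these cells in the higher members was not tested. In such bulk libraries, fewer cells of a type and less RNA per cell cannot be told apart.

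Of the 47 members, 43 had enough counts to be tested, and 30 passed a threshold of 0.05 on the edgeR adjusted p: 17 were higher and 13 lower in GPR35-positive cells. Over all 14184 tested genes 38.0% passed, 18.5% as higher and 19.5% as lower. At least 2-fold differences were called for 28 members, 15 higher and 13 lower, where 25.0% of all tested genes had them, 10.9% as higher and 14.1% as lower. The median log2 fold change of the 43 was -0.043, and that of all tested genes -0.049, so that the members moved both ways around a middle near 0. CPM ranges of the groups were apart for 31 of the 47, the 30 called members and Cd27, with 17 higher and 14 lower. Over all genes listed, 40.1% had ranges apart, 20.4% as higher and 19.7% as lower. Without replicate 4 the calls were 11 higher and 10 lower. Without GPR35-negative replicate 1, the negative library with the most macrophage RNA, they were 16 and 16.

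The directions of the higher members depended on what the libraries were scaled to. When the 20 macrophage identity genes, in place of TMM, set the scale of each library (identity scaling), the median of all tested genes moved from -0.049 to -2.31 and that of the members from -0.043 to -2.34. Under that scaling, 1 member was called higher, Tnfrsf21 (1.24, edgeR adjusted p = 0.0185), and 30 were called lower (0.818% and 82.2% of all tested genes). Tnfsf15 (1.19), Tnfsf14 (1.10), Relt (0.41), Tnfsf8 (0.32) and Tnfrsf11a (0.24) stayed above 0 without a call, and the other 11 of the 17 turned negative. Because this scaling lowered nearly all genes together, the 13 members called lower stayed lower by construction, which says nothing about their stability.

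**Figure D1:**
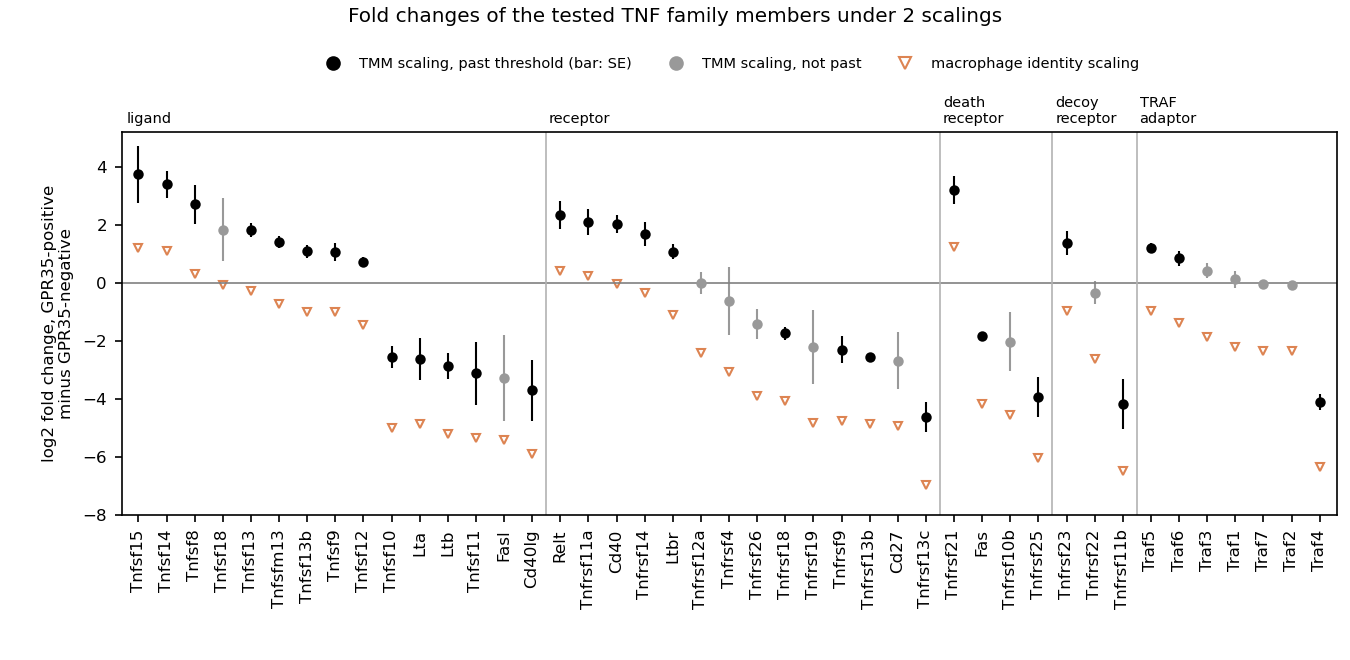
Log2 fold changes of the 43 tested members, by role (vertical axis, GPR35-positive minus GPR35-negative). Circles are TMM values with SE bars, black where past the threshold; open triangles are values with macrophage identity scaling, under which all but 6 of the 17 higher members lie below 0.

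Promoters of 38 members were available from RefSeq (GRCm38.p6; 250 bases before to 50 after the start site, 42 windows). They were searched on both strands for an interferon response type element (GAAA, any 2 bases, GAAA), for the PU.1 core GAGGAAGT, and for the NF-kB kappaB motif. Among the 14 higher members with a promoter, 2 held the interferon type element, Tnfsf13b and Tnfrsf14, and 0 held either of the others. Among the 11 lower members, 2 held a kappaB match, Tnfrsf9 and Ltb, and 0 held either of the others. Matches were also found in members without a call. Of 10 members not past the threshold, 3 held the PU.1 core, Tnfsf18, Traf3 and Traf7, and 1 held a kappaB match, Traf3. Of 3 members not tested, 1 held a kappaB match, Tnfrsf8. Of all 27025 genes with a promoter, 3.99% held the interferon type element, 3.69% the PU.1 core and 5.14% a kappaB match. By window, the shares of all 32851 were 3.44%, 3.20% and 4.51%. These matches are descriptions of sequence only. The 250 bases before the start site are shown for Tnfsf13b, Tnfrsf14, Tnfrsf9 and Ltb, the 4 called members with any match. For Tnfsf13b, Tnfrsf14 and Tnfrsf9 the start site used lies inside the gene's full RefSeq span, not at its first base. These spans are chr8:10006229-10036000, chr4:154918487-154928620 and chr4:150920155-150946104. Only for Ltb do the bases shown end directly before the gene span. Capitals mark the match, and in Tnfrsf9 they cover 2 overlapping kappaB matches.
Tnfsf13b (chr8:10006383-10006632, + strand): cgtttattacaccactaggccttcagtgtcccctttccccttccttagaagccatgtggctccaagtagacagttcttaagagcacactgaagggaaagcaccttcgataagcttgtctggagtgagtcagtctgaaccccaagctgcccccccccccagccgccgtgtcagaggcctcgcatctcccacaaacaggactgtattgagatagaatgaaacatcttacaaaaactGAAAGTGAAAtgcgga
Tnfrsf14 (chr4:154928078-154928327, - strand): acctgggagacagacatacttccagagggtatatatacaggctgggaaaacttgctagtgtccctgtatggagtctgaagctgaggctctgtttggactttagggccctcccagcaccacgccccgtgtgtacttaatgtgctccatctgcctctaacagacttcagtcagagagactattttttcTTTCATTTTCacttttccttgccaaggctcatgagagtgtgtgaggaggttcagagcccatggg
Tnfrsf9 (chr4:150927749-150927998, + strand): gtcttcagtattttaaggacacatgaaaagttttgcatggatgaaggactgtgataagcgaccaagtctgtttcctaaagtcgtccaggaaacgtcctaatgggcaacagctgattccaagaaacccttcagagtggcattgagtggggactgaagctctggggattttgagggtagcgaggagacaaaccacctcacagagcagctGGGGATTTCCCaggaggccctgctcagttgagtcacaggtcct
Ltb (chr17:35194257-35194506, + strand): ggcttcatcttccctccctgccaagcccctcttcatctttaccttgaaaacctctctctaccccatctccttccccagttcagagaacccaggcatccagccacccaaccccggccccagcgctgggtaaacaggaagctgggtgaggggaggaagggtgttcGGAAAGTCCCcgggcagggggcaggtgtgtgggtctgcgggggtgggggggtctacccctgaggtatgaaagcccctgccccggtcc

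Of the 16 ligands, 8 were higher and 5 lower in GPR35-positive cells, 2 did not pass and 1 was not tested (median log2 fold change 1.07). Over all tested genes, 18.5% were higher and 19.5% lower. The ligands that sustain B and plasma cells were on the higher side with TMM scaling, and all 4 genes of this paragraph turned negative with identity scaling. Tnfsf13b stood at 42.2, 58.3, 55.3 and 52.0 CPM in GPR35-positive replicates 1 to 4 and at 35.5, 18.8, 19.3 and 23.5 CPM in GPR35-negative replicates 1 to 4. The gene, at chr8:10006229-10036000 in GRCm38.p6, encodes BAFF, the B cell survival factor, and its groups did not overlap (log2 fold change 1.10 ± 0.22, edgeR adjusted p = 0.00566; -1.02 with identity scaling). Tnfsf13 was measured at 38.7, 65.3, 38.7 and 44.2 CPM in the positive libraries of replicates 1 to 4 and at 16.9, 13.6, 9.39 and 12.8 CPM in the negative ones. It encodes APRIL, which sustains plasma cells, and replicate 2 was the highest positive library (log2 fold change 1.82 ± 0.24, edgeR adjusted p = 8.05e-04; -0.30 with identity scaling). For Tnfsf12, replicates 1 to 4 gave 19.8, 21.2, 21.4 and 17.7 CPM in GPR35-positive and 15.1, 11.7, 10.3 and 12.0 CPM in GPR35-negative cells. Tnfsf12 encodes TWEAK, the ligand of Fn14, and differed by less than 2-fold (log2 fold change 0.71 ± 0.18, edgeR adjusted p = 0.0142; -1.46 with identity scaling). Its call ended without replicate 2 (adjusted p = 0.0549) and without replicate 3 (0.108). Tnfsfm13 was measured at 46.5, 72.2, 45.9 and 50.7 CPM in the positive libraries of replicates 1 to 4 and at 24.7, 21.1, 15.8 and 19.5 CPM in the negative ones. Tnfsfm13 is the read-through gene that joins TWEAK and APRIL (chr11:69682577-69696098), and its groups were apart (log2 fold change 1.41 ± 0.20, edgeR adjusted p = 0.00110; -0.74 with identity scaling). In GENCODE M21, 48.3% of the exonic bases of Tnfsf12 and 60.0% of those of Tnfsf13 also belong to Tnfsfm13. How reads in shared exons were counted is not stated, so the 3 values may not be separate measurements, and 13.5% of Tnfsf13 is further covered by the antisense gene Tnfsf13os, which reads without strand cannot tell apart.

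Tnfsf15, Tnfsf14 and Tnfsf8 had the steepest increases among the ligands, from low levels. Tnfsf15 stood at 9.82, 9.50, 3.07 and 4.56 CPM in GPR35-positive replicates 1 to 4 and at 0.397, 0, 1.28 and 0.299 CPM in GPR35-negative replicates 1 to 4. Tnfsf15 encodes TL1A, which costimulates lymphocytes through DR3. The groups were apart, with positive replicates 1 and 2 above 3 and 4 (log2 fold change 3.74 ± 0.97, edgeR adjusted p = 0.0160). The call ended with limma voom (adjusted p = 0.108), without replicate 1 (0.0840), without replicate 4 (0.0729) and with identity scaling (1.19, adjusted p = 0.329). Tnfsf14 was measured at 8.35, 10.5, 7.61 and 5.56 CPM in the positive libraries of replicates 1 to 4 and at 0.825, 0.297, 0.879 and 0.997 CPM in the negative ones. This gene encodes LIGHT, a ligand of HVEM and of the lymphotoxin beta receptor, and every positive library was above every negative one (log2 fold change 3.39 ± 0.47, edgeR adjusted p = 9.14e-04; 1.10, adjusted p = 0.273, with identity scaling). For Tnfsf8, replicates 1 to 4 gave 5.81, 5.22, 10.8 and 9.85 CPM in GPR35-positive and 0.886, 1.54, 2.24 and 0.199 CPM in GPR35-negative cells. Tnfsf8 encodes CD30 ligand, and positive replicates 3 and 4 were higher than 1 and 2 (log2 fold change 2.71 ± 0.67, edgeR adjusted p = 0.0130; 0.32, adjusted p = 0.751, with identity scaling). Tnfsf9 stood at 97.4, 92.5, 71.5 and 77.4 CPM in GPR35-positive replicates 1 to 4 and at 46.9, 62.4, 22.4 and 30.3 CPM in GPR35-negative replicates 1 to 4. The 4-1BB ligand encoded by Tnfsf9 is a costimulator of T cells. The groups were close but apart (log2 fold change 1.07 ± 0.30, edgeR adjusted p = 0.0214), and the call ended without replicate 1 (adjusted p = 0.0656) and without replicate 4 (0.0941). Tnfsf9 turned negative with identity scaling (-0.996), and 14.9% of its exonic bases are covered by Gm11110 on the opposite strand. Tnfsf18 was measured at 1.89, 2.14, 3.37 and 5.73 CPM in the positive libraries of replicates 1 to 4 and at 1.13, 2.14, 0.439 and 0 CPM in the negative ones. Tnfsf18 encodes GITR ligand; the groups overlapped and it did not pass (log2 fold change 1.84 ± 1.09, edgeR adjusted p = 0.211; -0.065 with identity scaling).

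The 5 ligands that were lower in GPR35-positive cells, Ltb, Lta, Tnfsf10, Tnfsf11 and Cd40lg, are mostly known as products of lymphocytes. Ltb stood at 3.73, 2.68, 4.89 and 3.97 CPM in GPR35-positive replicates 1 to 4 and at 9.29, 44.9, 24.8 and 32.7 CPM in GPR35-negative replicates 1 to 4. Ltb encodes lymphotoxin beta, the membrane anchor of the lymphotoxin trimer, and its negative libraries ranged from replicate 1, the lowest, to replicate 2, the highest (log2 fold change -2.86 ± 0.45, edgeR adjusted p = 0.00177; chr17:35194507-35196305). For Lta, replicates 1 to 4 gave 0.233, 1.24, 0.549 and 0.683 CPM in GPR35-positive and 1.59, 8.85, 2.80 and 3.56 CPM in GPR35-negative cells. Lymphotoxin alpha, encoded by the neighbouring Lta, was again highest in negative replicate 2 (log2 fold change -2.63 ± 0.73, edgeR adjusted p = 0.0209), and its call ended without replicate 3 (adjusted p = 0.0772) and without replicate 4 (0.0852). Tnfsf10 was measured at 1.82, 2.38, 3.67 and 3.29 CPM in the positive libraries of replicates 1 to 4 and at 10.5, 10.9, 25.1 and 18.9 CPM in the negative ones. Tnfsf10 encodes TRAIL, which binds death and decoy receptors, and the groups did not overlap (log2 fold change -2.55 ± 0.38, edgeR adjusted p = 0.00136). Tnfsf11 stood at 0.816, 0, 1.20 and 0.658 CPM in GPR35-positive replicates 1 to 4 and at 2.57, 13.1, 5.63 and 2.29 CPM in GPR35-negative replicates 1 to 4. Tnfsf11 encodes RANKL, and negative replicate 2 was far above the other 3 (log2 fold change -3.12 ± 1.08, edgeR adjusted p = 0.0478). The call ended with the replicate block (adjusted p = 0.135) and without replicate 1 (0.0952), replicate 3 (0.104) or replicate 4 (0.117). For Cd40lg, replicates 1 to 4 gave 0, 0.0669, 0.225 and 0.146 CPM in GPR35-positive and 0.825, 2.67, 1.12 and 1.30 CPM in GPR35-negative cells. CD40 ligand is known from activated T cells, and here rested on at most 45 reads in a library (log2 fold change -3.70 ± 1.05, edgeR adjusted p = 0.0225). It lost its call without replicate 2 (adjusted p = 0.0986), replicate 3 (0.0574) or replicate 4 (0.0887). Fas ligand, the trigger of Fas, was at 0 to 0.399 CPM in positive and 0 to 4.75 CPM in negative libraries and did not pass (log2 fold change -3.29 ± 1.49, edgeR adjusted p = 0.111). DESeq2 called Fasl lower (adjusted p = 0.0498), and limma voom did not (0.244). Cd70, the CD27 ligand, was not tested, at 0 to 0.171 CPM against 0 to 2.79 CPM. In the same libraries, the T and innate lymphoid cell markers had 9 of 11 tested genes lower and 0 higher, and they summed to 52.5 to 64.0 CPM against 336 to 609.5 CPM. Most of the negative sum came from Cd28 and Cd2. Without both, the sums were 38.5 to 41.9 CPM against 40.0 to 142 CPM and overlapped, with GPR35-negative replicate 4 at 40.0 CPM. Il7r did not pass and had a positive value (0.86 ± 0.46). The defining T cell marker Cd3e was at 1.21, 0.435, 1.05 and 1.10 CPM in positive and 4.19, 9.51, 4.87 and 1.30 CPM in negative replicates 1 to 4, so it was also highest in negative replicate 2. The part of these cells in the ligand results was not tested.

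**Figure D2:**
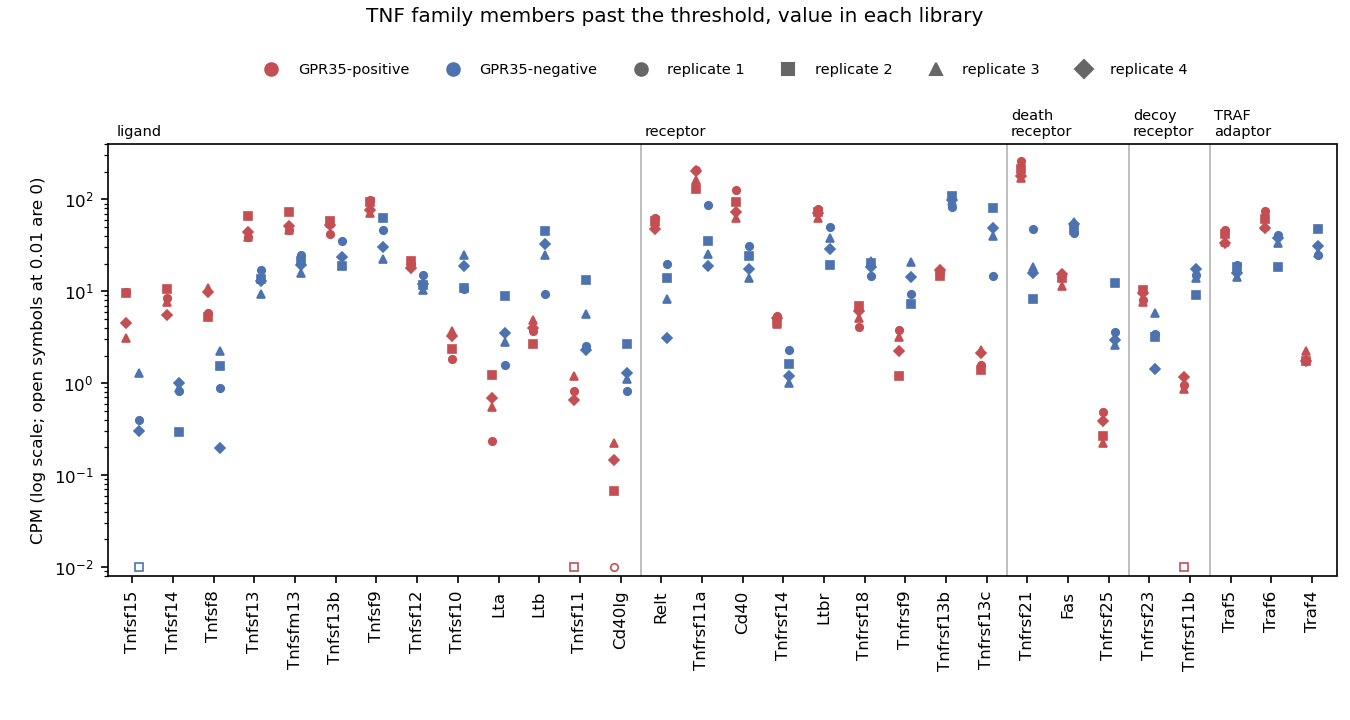
CPM of the 30 members past the threshold in each of the 8 libraries (log axis), by role, with symbol shape for the replicate and open symbols for a count of 0. Positive and negative libraries do not overlap for any of the 30, and the negative libraries of Ltb, Tnfrsf13c and Tnfrsf21 spread more widely than the positive ones.

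Among the 16 receptors without a death domain or decoy role, 5 were higher, 4 lower, 5 did not pass and 2 were not tested (median log2 fold change -1.02). The shares of all tested genes were 18.5% higher and 19.5% lower. Tnfrsf11a stood at 208, 128, 164 and 204 CPM in GPR35-positive replicates 1 to 4 and at 85.8, 34.9, 25.4 and 18.8 CPM in GPR35-negative replicates 1 to 4. Tnfrsf11a (chr1:105780673-105849444) encodes RANK, the RANKL receptor that drives osteoclast formation. Negative replicate 1 stood above the other negative libraries (log2 fold change 2.09 ± 0.45, edgeR adjusted p = 0.00718; 0.24, adjusted p = 0.595, with identity scaling). The share of the macrophage identity genes was also highest in that negative library, and its part in the Tnfrsf11a result was not tested. Cd40 was measured at 125, 93.0, 62.7 and 72.7 CPM in the positive libraries of replicates 1 to 4 and at 31.4, 24.1, 14.1 and 17.5 CPM in the negative ones. CD40 is the receptor through which T cells activate macrophages and B cells; positive replicate 1 was the highest, and all 4 positive libraries were above the negative ones (log2 fold change 2.02 ± 0.30, edgeR adjusted p = 0.00138). With identity scaling its change was -0.030, next to 0. For Relt, replicates 1 to 4 gave 62.8, 58.8, 57.3 and 47.9 CPM in GPR35-positive and 19.7, 14.0, 8.19 and 3.12 CPM in GPR35-negative cells. Relt encodes a TNF receptor family member of leukocytes, and the negative libraries varied from replicate 4, the lowest, to replicate 1 (log2 fold change 2.33 ± 0.47, edgeR adjusted p = 0.00533; 0.41, adjusted p = 0.423, with identity scaling). Ltbr stood at 78.4, 73.7, 63.4 and 71.7 CPM in GPR35-positive replicates 1 to 4 and at 50.6, 19.3, 37.7 and 28.8 CPM in GPR35-negative replicates 1 to 4. The lymphotoxin beta receptor it encodes binds lymphotoxin and LIGHT, and its positive libraries lay close together (log2 fold change 1.07 ± 0.26, edgeR adjusted p = 0.0125; -1.11 with identity scaling). Without replicate 4 its adjusted p was 0.0754. Tnfrsf14 was measured at 5.41, 4.68, 4.37 and 5.10 CPM in the positive libraries of replicates 1 to 4 and at 2.32, 1.60, 0.999 and 1.20 CPM in the negative ones. Tnfrsf14 encodes HVEM, a second receptor of LIGHT, whose groups were apart (log2 fold change 1.67 ± 0.41, edgeR adjusted p = 0.0125; -0.36 with identity scaling). The call ended without replicate 3 (adjusted p = 0.0677) and without replicate 4 (0.0678).

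The receptors that were lower in GPR35-positive cells are known from B cells, plasma cells and T cells. Tnfrsf13b stood at 16.5, 14.6, 16.6 and 17.2 CPM in GPR35-positive replicates 1 to 4 and at 83.2, 109, 96.5 and 97.2 CPM in GPR35-negative replicates 1 to 4. Tnfrsf13b (chr11:61126283-61153170) encodes TACI, a receptor for BAFF and APRIL on B and plasma cells. Both groups were tight and far apart, and its adjusted p was the smallest of all members (log2 fold change -2.57 ± 0.13, edgeR adjusted p = 1.04e-05). Tnfrsf13c was measured at 1.59, 1.41, 2.30 and 2.12 CPM in the positive libraries of replicates 1 to 4 and at 14.5, 80.8, 40.1 and 48.8 CPM in the negative ones. The BAFF receptor of B cells is the product of Tnfrsf13c; negative replicate 1 was the lowest and replicate 2 the highest of the negative libraries, and the positive ones were all low (log2 fold change -4.63 ± 0.51, edgeR adjusted p = 3.31e-04). Jchain, a plasma cell gene, was at 67739.7 to 134241 CPM in negative and 665 to 2072 CPM in positive libraries. All 11 tested plasma and B cell markers of 12 in the table were lower in GPR35-positive cells, with sums of 1243 to 2693 CPM against 73464 to 143889 CPM, and the part of these cells in the receptor results was not tested. For Tnfrsf18, replicates 1 to 4 gave 4.11, 6.93, 5.12 and 6.07 CPM in GPR35-positive and 14.8, 20.1, 21.3 and 18.2 CPM in GPR35-negative cells. Tnfrsf18 encodes GITR, a receptor of regulatory T cells, and the groups were apart (log2 fold change -1.75 ± 0.24, edgeR adjusted p = 8.64e-04). The gene Gm16008 on the opposite strand covers 27.2% of its exonic bases. Tnfrsf9 stood at 3.83, 1.20, 3.22 and 2.22 CPM in GPR35-positive replicates 1 to 4 and at 9.35, 7.19, 21.1 and 14.4 CPM in GPR35-negative replicates 1 to 4. Tnfrsf9 encodes 4-1BB, a costimulatory receptor of T and NK cells, with negative replicate 3 the highest (log2 fold change -2.31 ± 0.47, edgeR adjusted p = 0.00548). The other receptors tested did not pass. Tnfrsf12a, the TWEAK receptor Fn14, was level (-0.0087 ± 0.38), at 8.66 to 15.8 CPM against 4.93 to 15.4 CPM. Cd27 (-2.68 ± 0.99), Tnfrsf26 (-1.42 ± 0.53), Tnfrsf19 (-2.20 ± 1.28) and Tnfrsf4, which encodes OX40 (-0.63 ± 1.16), had edgeR adjusted p values of 0.0601, 0.0626, 0.201 and 0.693. Cd27 was called lower with DESeq2 (adjusted p = 0.0077) and limma voom (0.0310), but not with the replicate block in edgeR (0.139). Tnfrsf8, which encodes CD30, and the ectodysplasin receptor gene Eda2r were not tested, at no more than 1.33 and 4.04 CPM in any library.

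Of the 5 death domain receptors 1 was higher, Tnfrsf21, and 2 were lower, Fas and Tnfrsf25, while Tnfrsf10b did not pass and Ngfr was not tested (18.5% of all tested genes were higher and 19.5% lower). Tnfrsf21 stood at 262, 217, 172 and 178 CPM in GPR35-positive replicates 1 to 4 and at 47.6, 8.32, 18.4 and 15.9 CPM in GPR35-negative replicates 1 to 4. Tnfrsf21 (chr17:43016555-43089188) encodes death receptor 6. Every positive library exceeded every negative one, and negative replicate 1 was above the other negative libraries (log2 fold change 3.19 ± 0.49, edgeR adjusted p = 0.00157). It was higher with both scalings (1.24, adjusted p = 0.0185, with identity scaling). Fas was measured at 14.9, 14.0, 11.3 and 15.6 CPM in the positive libraries of replicates 1 to 4 and at 42.8, 46.2, 56.2 and 54.3 CPM in the negative ones. Fas, the death receptor CD95, was lower with little spread in either group (log2 fold change -1.84 ± 0.16, edgeR adjusted p = 1.10e-04; chr19:34290647-34327775). For Tnfrsf25, replicates 1 to 4 gave 0.490, 0.268, 0.225 and 0.390 CPM in GPR35-positive and 3.61, 12.2, 2.60 and 2.92 CPM in GPR35-negative cells. Tnfrsf25 encodes DR3, the TL1A receptor of lymphocytes, and negative replicate 2 was the highest, as for Cd3e (log2 fold change -3.94 ± 0.69, edgeR adjusted p = 0.00276). The part of T cells in the Tnfrsf25 result was not tested. The TRAIL death receptor Tnfrsf10b overlapped between groups and did not pass, at 0.468 to 0.731 CPM against 0.0917 to 4.95 CPM (log2 fold change -2.03 ± 1.02, edgeR adjusted p = 0.145). Ngfr, the p75 neurotrophin receptor, was not tested, with at most 29 reads in a library.

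The 3 decoy receptors differed from each other. Tnfrsf11b stood at 0.956, 0, 0.874 and 1.17 CPM in GPR35-positive replicates 1 to 4 and at 15.1, 9.03, 13.9 and 17.5 CPM in GPR35-negative replicates 1 to 4. Tnfrsf11b encodes osteoprotegerin, the soluble decoy for RANKL that stromal cells make, and was lower (log2 fold change -4.19 ± 0.87, edgeR adjusted p = 0.00585). In the same libraries the stromal and endothelial markers had 8 of 12 genes lower and 0 higher, with sums of 224 to 1130.2 CPM against 3186 to 7452 CPM. Dcn was at 41.2 to 157 CPM against 923 to 1549.8 CPM, and the part of stroma in this result was not tested. Tnfrsf23 was measured at 8.12, 10.3, 7.74 and 9.53 CPM in the positive libraries of replicates 1 to 4 and at 3.42, 3.15, 5.75 and 1.43 CPM in the negative ones. Tnfrsf23 and Tnfrsf22 encode mouse decoy receptors for TRAIL. Tnfrsf23 was higher (log2 fold change 1.37 ± 0.41, edgeR adjusted p = 0.0286), but turned negative with identity scaling (-0.97) and lost its call without replicate 1 (adjusted p = 0.0887), replicate 2 (0.0910) or replicate 4 (0.0773), and without GPR35-negative replicate 1 alone (0.05004). Tnfrsf22 overlapped between groups, at 4.34 to 7.17 CPM against 3.09 to 11.9 CPM (log2 fold change -0.34 ± 0.41, edgeR adjusted p = 0.539). The 2 genes are close paralogs, and how reads shared by both were counted is not stated.

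Of the 7 TRAF adaptors 2 were higher, 1 lower and 4 did not pass, with a median log2 fold change of 0.12. Beside this, 18.5% of all tested genes were higher and 19.5% lower. Traf4 stood at 1.73, 1.74, 2.22 and 1.73 CPM in GPR35-positive replicates 1 to 4 and at 24.8, 47.6, 25.9 and 30.9 CPM in GPR35-negative replicates 1 to 4. Traf4 is a TRAF known from epithelia and development; all positive libraries were low and alike (log2 fold change -4.12 ± 0.27, edgeR adjusted p = 3.25e-05; chr11:78158423-78165579; -6.35 with identity scaling). Of the epithelial markers 1 of 8 tested was lower, Epcam (-3.16 ± 0.25), and 0 higher. Their sums were 48.1 to 97.3 CPM against 138 to 397 CPM, and without Epcam they overlapped, at 40.0 to 83.0 CPM against 58.3 to 270.5 CPM. Cdh1 (0.52 ± 0.74) and Vil1 (0.42 ± 0.70) did not pass and had positive values. Lower calls were also made for all 11 tested plasma and B cell markers. The same held for 9 of 11 T and innate lymphoid cell markers and 8 of 12 stromal and endothelial markers. The part of any of these cells in the Traf4 result was not tested. For Traf5, replicates 1 to 4 gave 46.6, 41.7, 34.2 and 33.9 CPM in GPR35-positive and 19.2, 18.4, 14.1 and 16.0 CPM in GPR35-negative cells. Traf5 acts downstream of CD40 and the lymphotoxin beta receptor, and the groups were apart (log2 fold change 1.21 ± 0.17, edgeR adjusted p = 0.00100; -0.97 with identity scaling). Traf6 was measured at 75.6, 61.4, 50.7 and 48.5 CPM in the positive libraries of replicates 1 to 4 and at 41.2, 18.5, 33.3 and 38.4 CPM in the negative ones. Traf6, shared by CD40, RANK and Toll-like receptors, rose by less than 2-fold (log2 fold change 0.84 ± 0.26, edgeR adjusted p = 0.0302), turned negative with identity scaling (-1.40), and missed the threshold when any 1 replicate was left out (adjusted p 0.0535 to 0.0868). Traf7 stood at 68.5, 73.2, 66.4 and 66.9 CPM in GPR35-positive replicates 1 to 4 and at 59.3, 72.5, 70.9 and 80.6 CPM in GPR35-negative replicates 1 to 4. Traf2 was measured at 56.8, 71.2, 57.2 and 53.6 CPM in the positive libraries of replicates 1 to 4 and at 66.5, 52.0, 58.6 and 76.4 CPM in the negative ones. For Traf1, replicates 1 to 4 gave 48.3, 46.6, 48.8 and 46.7 CPM in GPR35-positive and 31.0, 59.2, 61.1 and 24.5 CPM in GPR35-negative cells. These 3 adaptors overlapped between groups throughout: Traf7 (-0.043 ± 0.12, edgeR adjusted p = 0.801), Traf2 (-0.087 ± 0.15, 0.683) and Traf1 (0.12 ± 0.29, 0.768). Traf3, a brake on non-canonical NF-kB signalling, also did not pass (log2 fold change 0.42 ± 0.25, edgeR adjusted p = 0.213). Negative replicates 2 and 3 of Traf1 were above all positive libraries, and replicates 1 and 4 below them.

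Known ligand and receptor pairs were then set side by side. Of 19 pairs, both sides were called in 12, and in 9 of these the ligand and its receptor lay in opposite directions. In 5 of the 9 the ligand was higher and the receptor lower in GPR35-positive cells: BAFF with its receptor and with TACI, APRIL with TACI, TL1A with DR3, and 4-1BB ligand with 4-1BB. In the other 4 the receptor was higher and the ligand lower: RANK with RANKL, CD40 with CD40 ligand, the lymphotoxin beta receptor with Ltb, and the decoy Tnfrsf23 with TRAIL. LIGHT was higher together with HVEM and with the lymphotoxin beta receptor, and RANKL was lower together with its decoy osteoprotegerin. Several pairs share a gene, so they are not independent, and the count is a description. With identity scaling the higher side of all 9 opposite pairs except TL1A and RANK turned negative, and no side of the 9 was called higher.

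**Figure D3:**
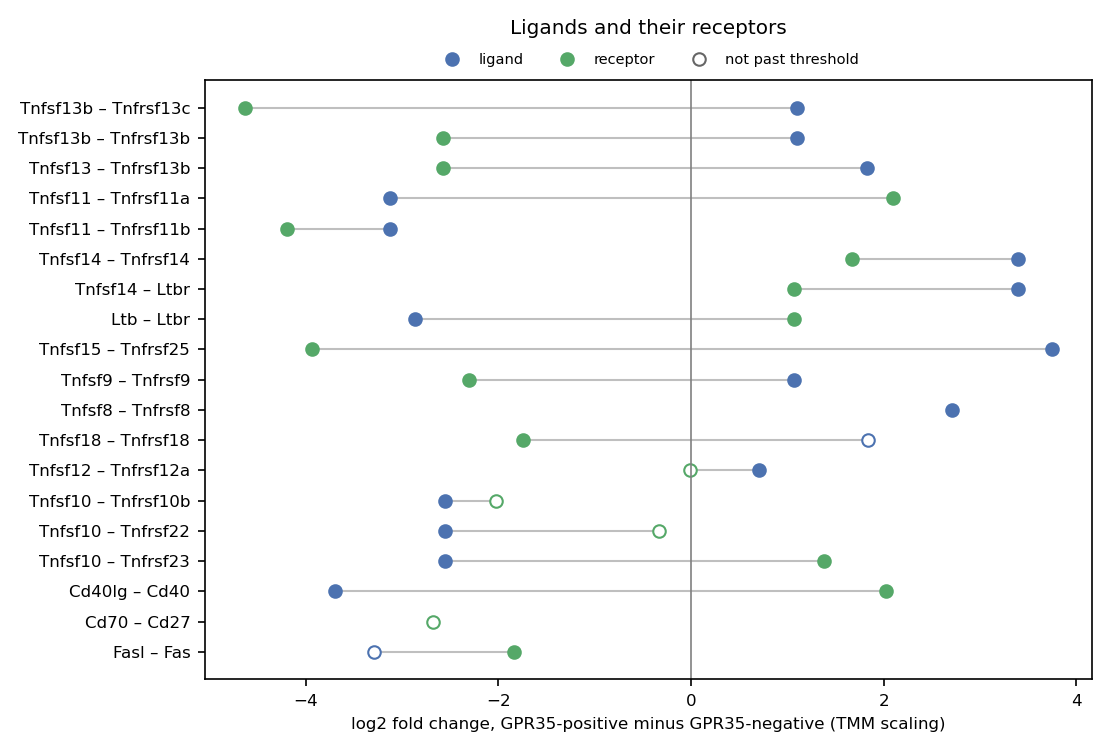
Log2 fold changes of ligand (blue) and receptor (green) for 19 known pairs with TMM scaling, with open circles where the gene did not pass and no circle where it was not tested. In 9 of the 12 pairs with both sides called the circles lie on opposite sides of 0; with identity scaling the higher sides of these 9 other than Tnfsf15 and Tnfrsf11a fall below 0.

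Levels of different genes were compared per gene length, as RPKM (CPM divided by the table's gene length in kilobases, mean ± SD, n = 4). In GPR35-positive libraries the highest members were Tnfsf9 (68.9 ± 9.95 RPKM), Tnfrsf21 (57.1 ± 11.5), Cd40 (49.5 ± 15.4), Tnfrsf11a (35.0 ± 7.45) and Ltbr (34.3 ± 3.00). Tnfsf13b (30.6 ± 4.13 RPKM), Tnfsf13 (27.8 ± 7.56) and Traf7 (25.1 ± 1.14) came next. The mean ± SD ranges of neighbours in this order overlapped. In GPR35-negative libraries Tnfrsf13b stood alone at the top (129 ± 14.3 RPKM), and the order below it was Tnfsf9 (32.9 ± 14.5), Fas (27.7 ± 3.56), Traf7 (25.9 ± 3.21) and Ltb (25.5 ± 13.6). Tnfrsf13c (24.2 ± 14.3 RPKM), Traf2 (20.7 ± 3.43) and Traf1 (18.9 ± 8.14) followed. From Tnfsf9 down, the mean ± SD ranges of neighbours overlapped. Tnfsf9 and Traf7 were thus among the 8 highest members of both groups. The steepest called increases, Tnfsf15 and Tnfsf14, were low in both groups, at 1.16 ± 0.589 and 4.28 ± 1.09 RPKM in positive and 0.0847 ± 0.0943 and 0.401 ± 0.166 RPKM in negative libraries.

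**Figure D4:**
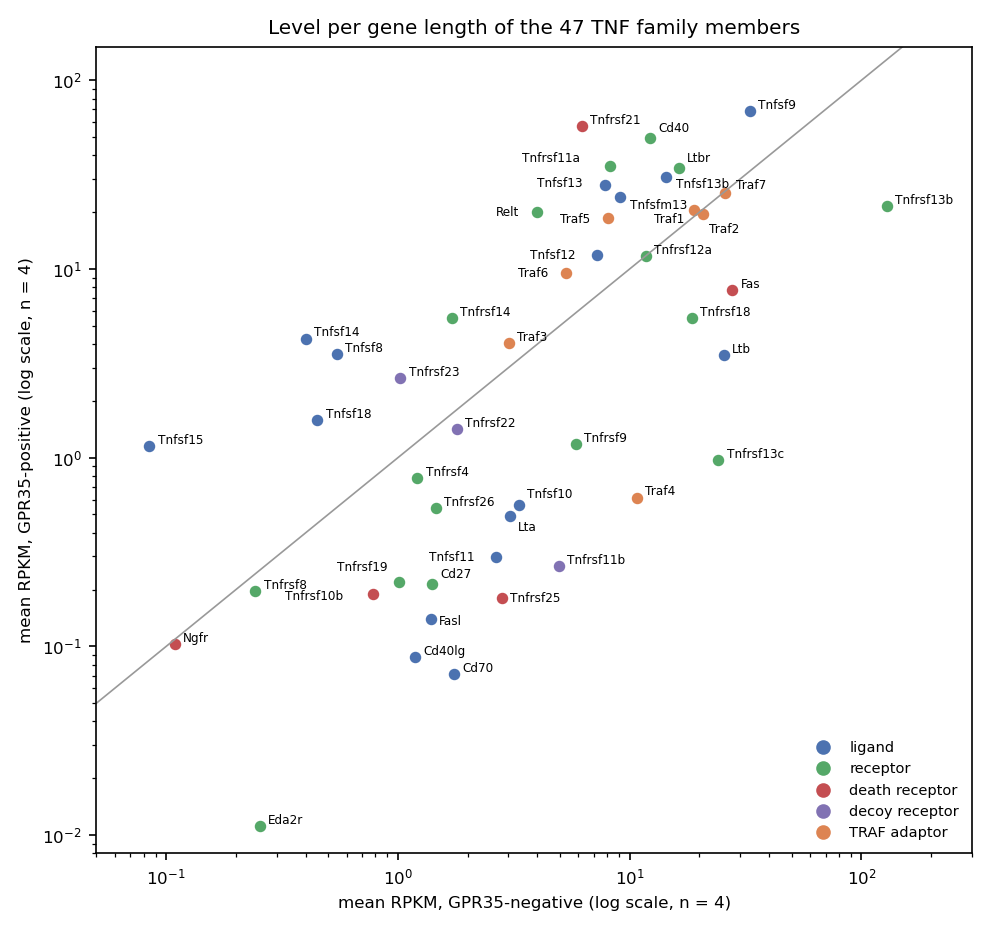
Mean RPKM of the 47 members in GPR35-negative (horizontal) and GPR35-positive libraries (vertical), both on log axes, coloured by role, with the line of equal levels. Tnfrsf13b is the highest point to the right at 129 RPKM, and Tnfsf9 and Tnfrsf21 are the highest points upwards at 68.9 and 57.1 RPKM.

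Some members are neighbours in the genome, within 100000 bases of each other. On chromosome 4, Tnfsf15 (chr4:63724600-63745059) and Tnfsf8 (chr4:63831202-63861508) were both higher in GPR35-positive cells (3.74 ± 0.97 and 2.71 ± 0.67). On chromosome 17, Tnfsf9 (chr17:57105287-57107758) and Tnfsf14 (chr17:57189474-57194181) were higher, and Cd70 between them (chr17:57145997-57149777) was too low to test. The lymphotoxin genes Ltb and Lta (chr17:35203165-35205578), also on chromosome 17, were both lower. Of the chromosome 7 cluster, Tnfrsf23 (chr7:143665807-143686436) was higher, while Tnfrsf22 and Tnfrsf26 did not pass. Ltbr was higher and the neighbouring Cd27 did not pass. With identity scaling Tnfsf9, Ltbr and Tnfrsf23 turned negative.

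Beyond the members, 46 genes that act with them were read from 4 lists; 24 were higher and 2 lower (median 0.58), against 18.5% and 19.5% of all tested genes. With identity scaling 0 were higher and 34 lower, with a median of -1.63, and without replicate 3 the calls fell to 16 higher and 1 lower. In the receptor complex and death list 5 of 12 were higher and 1 lower. The examples were the initiator caspase Casp8 (0.88 ± 0.14), the necroptosis kinase Ripk3 (1.37 ± 0.27), the caspase-8 inhibitor Cflar (0.90 ± 0.20) and Tnfaip8l2 (1.77 ± 0.40). Of 16 ubiquitin and adaptor genes 9 were higher and 1 lower. The lower one was Traf3ip2 (-3.03 ± 0.32), the adaptor Act1 of interleukin-17 receptors, and the higher ones included the NF-kB inhibitor Tnfaip3, which encodes A20 (1.65 ± 0.30), Usp18 (1.58 ± 0.23) and Tifa (1.54 ± 0.29). Among 12 kinases 5 were higher and 0 lower: Map3k14, the NIK kinase of the non-canonical pathway (1.61 ± 0.18), Ikbke (2.18 ± 0.39), Ikbkb (1.48 ± 0.26) and Tbk1 (0.93 ± 0.25) led by p. Of 6 processing genes 5 were higher and 0 lower, among them the sheddases Adam17 (1.80 ± 0.23) and Adam10 (1.04 ± 0.26), with Sppl2a (0.89 ± 0.23) and Rhbdf2 (1.12 ± 0.29). All of the higher genes named in this paragraph were at or below 0.18 with identity scaling. The macrophage identity list, of which 18 of 20 were higher and 0 lower, moved with them, and its part was not tested. Its other 2 genes did not pass: Mrc1 (0.71 ± 0.49) and Cd163, which had a negative value (-1.50 ± 0.71). Both were among the 20 genes that set the identity scaling.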

How the data were processed

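Per the labels' protocols, RNA of the sorted fractions was amplified with SMART-Seq v4 and made into Nextera XT libraries, which mark neither strand nor molecules. The authors deposited raw read counts per gene with a gene length; mm10, R 3.4.2 and STAR 2.5.2a are named in the submitters' processing notes, and the counter is not given in the sources used here. Rows without a symbol (9 of 14980, 0.0179% of counts) were left out. edgeR 4.0.16 (R 4.3.3) tested counts with TMM scaling, filterByExpr (minimum count 10, minimum total 15; 14184 genes kept), a robust quasi-likelihood F-test without a block, and Benjamini-Hochberg adjustment over all tested genes at 0.05. A positive log2 fold change means more in GPR35-positive cells, and its SE was derived from F. CPM and RPKM use TMM library sizes, and RPKM the table's other column, the deposited gene length. Simulated counts with 100 changed genes per fold size, made from these groups and 14184 genes, gave 15% recovery at 2-fold and 69% at 4-fold, with 2 false calls. In the data 38.0% of tested genes passed, far more than were changed in the simulation. The adjustment is stricter when few genes change, so these recoveries are not those of the main fit. Libraries are paired by the labels' animal numbers. Deviations from the group means correlated at 0.206, 0.206, 0.431 and 0.0637 across genes for the partners of replicates 1 to 4. The highest correlation with another animal's library was 0.104, 0.104, 0.237 and 0.237, so replicate 4 correlated more with another animal than with its partner. No 2 libraries of a group agreed within sampling noise (chi-square per degree of freedom at least 26.6). Alternatives were RLE scaling, identity scaling (geometric mean of 20 genes, pseudocount 0.5), no filter, DESeq2 1.42.0, limma 3.58.1 voom, the block and leaving out each animal. Leaving out GPR35-negative replicate 1 alone, and marker sums without Epcam or without Cd28 and Cd2, were chosen after seeing the data. Members, lists and alternatives were chosen with earlier results of these data known. The rule for full values was a call with at least a 2-fold difference or a place among the 8 highest RPKM of a group, and for each pathway list the 4 smallest p. Coordinates (47 members matched) and promoters (38 matched) are from RefSeq GRCm38.p6, and exon overlaps (47 matched) from GENCODE M21. Values of some single genes are not reported here. The p-values of the main fit describe the spread between the 4 libraries within each group. They do not use the differences within animals, since that fit had no block. Those for single members come from the fit across all genes.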

Additional observations from a re-analysis of the deposited data

Results flagged for a closer look

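Among 86 groups of 4 libraries (43 tested members, 2 groups each, log2 CPM with a prior count of 2), 6 held a library whose gap to its nearest neighbour exceeded Dixon's 95% critical value, and chance flags about 1 in 20 groups. Fasl in GPR35-positive replicate 1 was the lowest of its group at -4.01 log2 CPM, against -1.40 to -1.12 in the others. Fasl in GPR35-negative replicate 4 was the lowest of its group at -4.01 log2 CPM, against 1.57 to 2.27 in the others. Tnfrsf11b in GPR35-positive replicate 2 was the lowest of its group at -4.01 log2 CPM, against -0.10 to 0.30 in the others. Cd27 in GPR35-positive replicate 2 was the lowest of its group at -4.01 log2 CPM, against -1.12 to -0.86 in the others. Traf4 in GPR35-positive replicate 3 was the highest of its group at 1.19 log2 CPM, against 0.84 to 0.85 in the others. Tnfsf14 in GPR35-negative replicate 2 was the lowest of its group at -1.48 log2 CPM, against -0.17 to 0.080 in the others. In 4 of these the library had 0 reads of the gene. No library accounted for more than 2 of the 6.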

How the results depend on the processing

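Of the 30 called members, 20 kept their call and direction with RLE scaling, without a count filter, with DESeq2, limma voom and the replicate block, and with each animal or GPR35-negative replicate 1 left out. DESeq2 called 35 of 47 members, 17 higher and 18 lower, beside 6732 of 14813 genes. With limma voom 31 of 43 members were called, 16 higher and 15 lower, beside 6359 of 14184 genes. The replicate block changed 1 call among the members, that of Tnfsf11 (-2.85, adjusted p = 0.135), and turned the uncalled Tnfrsf12a to 0.082. With macrophage identity scaling 11771 genes were called, 116 higher and 11655 lower; of the members 1 was higher and 30 lower, and of the pathway genes 0 and 34. This scaling reversed 14 members: Cd40 (-0.030), Tnfsf18 (-0.065), Tnfsf13 (-0.30), Tnfrsf14 (-0.36), Tnfsfm13 (-0.74), Traf5 (-0.97), Tnfrsf23 (-0.97), Tnfsf9 (-0.996), Tnfsf13b (-1.02), Ltbr (-1.11), Traf6 (-1.40), Tnfsf12 (-1.46), Traf3 (-1.88) and Traf1 (-2.22). The common shift of all genes to a median of -2.31 shows in each. Members not past the threshold also changed sign: Tnfrsf12a without a filter (0.00086) and Tnfrsf4 with limma voom (0.16). Leaving out animals, or GPR35-negative replicate 1 alone, gave 3284 to 5966 called genes (1572 to 2931 higher, 1680 to 3035 lower), 21 to 32 members (11 to 16 higher, 10 to 16 lower) and 17 to 27 pathway genes (16 to 25 higher, 1 to 2 lower). The log2 fold changes then ranged from -0.071 to 0.36 for Traf1, -0.22 to 0.067 for Traf2, -0.12 to 0.041 for Traf7 and -0.28 to 0.28 for Tnfrsf12a. The fewest members were called without replicate 4 (21), and the fewest genes without replicate 3 (3284); these fits hold fewer samples. Depth limits the members with few reads: Cd40lg, Fasl and Cd27 had at most 45, 95 and 64 reads in a library.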
